A study of Mus musculus with 8 samples.

Results

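Fibroblasts of the colon were followed through 8 genes that mark their identity or activation, *Pdgfra*, *Pdgfrb*, *Thy1*, *Pi16*, *Pdpn*, *Fap*, *S100a4* and *Cd34*. The genes were taken by symbol and none encodes a matrix protein. All 8 were among the 15859 genes counted by RNA-seq and among the 14371 genes with enough reads to be tested. RNA came from the distal colon of male mice on a BALB/c x 129SvEV background, *Hsf1* null or WT littermates, given as 10 weeks old. HSF1, heat shock factor 1, is the transcription factor that induces chaperone genes under stress, and the null allele was not limited to fibroblasts or to any other cell type. WT day 0 and null day 0 mice were untreated. WT day 15 and null day 15 mice had received 10 mg/kg of the carcinogen azoxymethane (AOM) at 8 weeks of age. From day 7 they drank 1.5% of the irritant dextran sulfate sodium (DSS) for 5 days. The sample titles and the paper place these mice at day 15, and in the paper the DSS had ended before that day. The protocol in the labels alone can be read as ending with the DSS. Each group held 2 mice, so an exact permutation test of a single value between a pair of groups could not go below p = 0.333. The tests therefore rest on a model that shares the spread across genes.

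Total counts were between 2553348 and 12440257 per mouse. Levels are given as CPM, counts per 1000000 after TMM scaling of the libraries. *Hsf1* itself was at 40.5 and 36.5 CPM in the WT and 13.95 and 11.9 CPM in the null colons at day 0. The treated WT colons held 50.4 and 45.9 CPM, and the treated null colons 13.5 and 9.09 CPM. Between 33 and 170 reads on *Hsf1* thus remained in each null colon. Which part of the gene is deleted is not given in the sources used here, and these reads were not related to it. Its log2 fold change between the genotypes was 2.10 at day 15 (adjusted p = 0.0137) and 1.57 at day 0 (adjusted p = 0.775) in edgeR's quasi-likelihood test. DESeq2 gave 1.55 at day 0 (adjusted p = 0.0361), so that the day 0 call depended on the tool. A pair of libraries stood apart from their partners in stromal transcripts. The summed level of 15 fibroblast matrix genes such as *Col1a1* was 5880 CPM in replicate 1 and 2426 CPM in replicate 2 of WT day 0. It was 1224 CPM in replicate 1 and 3428 CPM in replicate 2 of null day 15.

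Fibroblasts of the gut wall lie beneath and around the crypts, where they secrete matrix and growth factors that position epithelial stem and differentiated cells. PDGFRα and PDGFRβ are receptor tyrosine kinases for platelet-derived growth factors. High PDGFRα marks fibroblasts next to the epithelium, PDGFRβ is shared with pericytes, and CD34 and PI16 mark fibroblasts of the deeper and adventitial layers. PDPN and THY1 mark most gut fibroblasts but also other cells, and FAP is a protease associated with activated fibroblasts in wounds and tumors.

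HSF1 binds inverted repeats of the bases GAA. The 250 bases upstream of the start of transcription are therefore shown for *Pdgfra*, which holds such a repeat, and for *Pdpn*, a marker with more RNA in both WT than in both null mice at day 15, which holds none. Capitals mark the letters TTCNNGAA, a pair of units of a heat shock element.
*Pdgfra*, GRCm38.p6, chr5:75152001-75152250, plus strand: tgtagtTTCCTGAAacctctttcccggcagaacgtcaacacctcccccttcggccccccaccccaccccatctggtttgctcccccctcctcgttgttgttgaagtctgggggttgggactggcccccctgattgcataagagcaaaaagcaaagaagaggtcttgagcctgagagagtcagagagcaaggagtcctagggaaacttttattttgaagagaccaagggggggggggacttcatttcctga
*Pdpn*, GRCm38.p6, chr4:143299565-143299814, minus strand: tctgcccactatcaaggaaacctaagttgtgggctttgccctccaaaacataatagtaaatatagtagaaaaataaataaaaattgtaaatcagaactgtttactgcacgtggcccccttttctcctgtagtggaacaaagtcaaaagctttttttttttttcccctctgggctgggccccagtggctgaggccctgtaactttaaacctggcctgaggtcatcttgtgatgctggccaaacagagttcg
The sequences come from RefSeq. *Pdgfra*, *Pdpn*, *Pi16*, *S100a4* and *Cd34* were found in its promoter table, *Thy1* and *Fap* were not, and *Pdgfrb* was not examined. The letters GAANNTTC and TTCNNGAA were searched, each of which reads the same on both strands. *Pdgfra* held 1 match, at position -244 relative to the start, and *Pdpn*, *Pi16*, *S100a4* and *Cd34* held 0. Of 32851 upstream windows of the same length, 7.17% held TTCNNGAA, 6.69% held GAANNTTC and 12.8% held either. A match is a description of the letters and says nothing on binding.

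On a scale that allows genes to be compared, CPM per kilobase of annotated exons, the 8 genes spanned a wide range of levels. *S100a4*, a small calcium-binding protein also made by macrophages and T cells, was the highest with a mean of 20.8 CPM per kb over the 8 mice. *Pdpn* (13.5 CPM per kb), *Thy1* (13.3), *Pdgfrb* (7.87), *Pdgfra* (4.84), *Cd34* (4.47), *Pi16* (1.26) and *Fap* (0.386) followed. Among WT day 15 mice, *Pdpn* (22.3 and 26.7 CPM per kb), *S100a4* (18.8 and 26.2) and *Thy1* (19.4 and 23.4) overlapped in level. *Pdgfrb* (10.9 and 13.6 CPM per kb) lay below them, followed by *Pdgfra* (6.27 and 6.27), *Cd34* (6.08 and 4.32), *Pi16* (3.28 and 1.54) and *Fap* (0.169 and 0.298). In untreated null mice the middle of the order was *Pdpn* (5.69 and 7.31 CPM per kb), *Cd34* (3.67 and 6.90), *Pdgfra* (3.21 and 6.99), *Thy1* (5.76 and 4.08) and *Pdgfrb* (3.96 and 4.92), and each of these overlapped with the next. *Pi16* and *Fap* had the lowest means in every group. With the longest transcript in place of all exons, *Thy1* ranked 2, *Pdpn* 3, *Cd34* 4, *Pdgfrb* 5 and *Pdgfra* 6. The place of *S100a4* is uncertain, since 51.7% of its 584 exon bases are shared with Gm42674, a gene model on the same strand that is not in the count table.

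**Figure D1:**
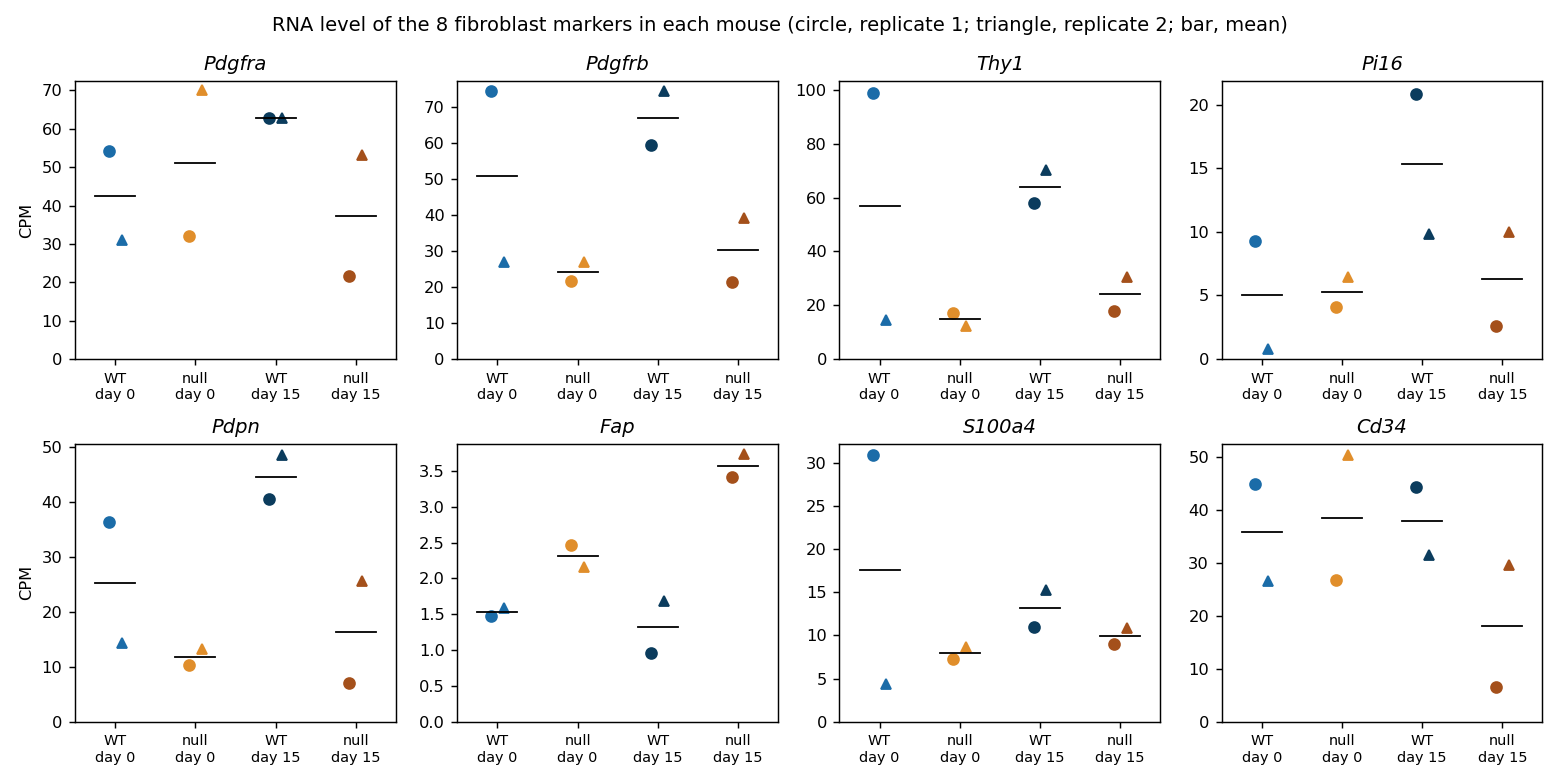
Each panel shows the level of 1 gene in CPM (vertical axis, from 0) in each of the 8 mice, grouped by genotype and day, with circles for replicate 1, triangles for replicate 2 and a bar for the mean of the group. *Fap* was lower in every WT mouse (0.956 to 1.69 CPM) than in every null mouse (2.15 to 3.74 CPM), while the means of *Thy1* and *S100a4* in WT day 0 rest on replicate 1 with 98.9 and 30.9 CPM.

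The levels of the PDGF receptors are given next, and the receptors were not tested against each other. *Pdgfrb* (ENSMUSG00000024620, chromosome 18, 61045150 to 61085061, GENCODE M21 on GRCm38) was at 74.6 and 27.0 CPM in the WT and 21.7 and 26.9 CPM in the null colons at day 0. After treatment the WT colons held 59.6 and 74.6 CPM, and the null colons 21.4 and 39.2 CPM. The WT mice lay above the null mice at both days, although replicate 2 of WT day 0 was nearly level with the higher null mouse. The log2 fold change of *Pdgfrb* was 1.15 at day 15 (SE 0.45, 95% confidence interval 0.15 to 2.14, adjusted p = 0.163) and 1.11 at day 0 (SE 0.46, adjusted p = 0.775) in edgeR. Neither passed the test, and the day 0 value of *Pdgfrb* was 0.16 without replicate 1 of WT day 0 and 1.61 without replicate 2.

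*Pdgfra* (ENSMUSG00000029231, chromosome 5, 75152292 to 75198215) was at 54.2 and 30.9 CPM in the WT and 32.2 and 70.0 CPM in the null colons at day 0, where the genotypes overlapped. In treated WT mice it was at 62.9 and 62.8 CPM, above the 21.5 and 53.2 CPM of treated null mice. The log2 fold change of *Pdgfra* was 0.75 at day 15 (SE 0.47, interval -0.30 to 1.80, adjusted p = 0.365) and -0.22 at day 0 (interval -1.28 to 0.84, adjusted p = 0.954) in edgeR. Without replicate 1 of null day 15, the day 15 values were 0.77 for *Pdgfrb* and 0.23 for *Pdgfra*. Without replicate 2 they were 1.65 and 1.54.

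Of the surface glycoproteins, *Pdpn* encodes the mucin-like podoplanin of fibroblasts and lymphatic endothelium. *Pdpn* (ENSMUSG00000028583, chromosome 4, 143267431 to 143299564) was at 36.3 and 14.3 CPM in the WT and 10.3 and 13.3 CPM in the null colons at day 0. After treatment the WT colons held 40.5 and 48.6 CPM, and the null colons 7.13 and 25.7 CPM. The WT mice were above the null mice at both days, at day 0 by a narrow margin in replicate 2. For *Pdpn* the log2 fold change was 1.43 at day 15 (SE 0.56, interval 0.19 to 2.68, adjusted p = 0.164) and 1.16 at day 0 (SE 0.58, adjusted p = 0.794) in edgeR. Leaving out replicate 2 of null day 15 gave 2.64, which passed the test (adjusted p = 0.0361 in edgeR), and leaving out replicate 1 gave 0.79 (adjusted p = 0.507). The day 0 value was 0.30 without replicate 1 of WT day 0.

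*Thy1*, the GPI-anchored glycoprotein of fibroblasts and, in mice, of T cells, was at 98.9 and 14.7 CPM in the WT and 17.2 and 12.2 CPM in the null colons at day 0. Replicate 1 of WT day 0 held the highest *Thy1* level of all mice, and replicate 2 lay between the null mice. At day 15 *Thy1* (ENSMUSG00000032011, chromosome 9, 44043384 to 44048579) was at 58.0 and 70.1 CPM in the WT and 18.0 and 30.5 CPM in the null colons, without overlap. Its log2 fold change was 1.3991 at day 15 (SE 0.64, interval -0.035 to 2.83, adjusted p = 0.225) and 1.96 at day 0 (SE 0.67, interval 0.47 to 3.45, adjusted p = 0.775) in edgeR. The day 0 value was -0.029 without replicate 1 of WT day 0. Without replicate 2 it was 2.70 and past the threshold (adjusted p = 0.0400 in edgeR).

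*Cd34*, a sialomucin of adventitial fibroblasts, endothelium and blood progenitors, was at 45.0 and 26.6 CPM in the WT and 26.8 and 50.3 CPM in the null colons at day 0, with overlap. At day 15 *Cd34* (ENSMUSG00000016494, chromosome 1, 194938819 to 194961279) was at 44.3 and 31.5 CPM in the WT and 6.51 and 29.5 CPM in the null colons. Replicate 1 of null day 15 was the lowest of all mice, and replicate 2 was close to the lower WT mouse. For *Cd34* the log2 fold change was 1.07 at day 15 (SE 0.59, interval -0.25 to 2.38, adjusted p = 0.305) and -0.065 at day 0 (interval -1.38 to 1.25, adjusted p = 0.987) in edgeR. The day 15 value was 2.54 (adjusted p = 0.0350 in edgeR) without replicate 2 of null day 15 and 0.35 without replicate 1. An antisense gene, Gm16897, covers 2.03% of the exon bases of *Cd34*, and whether strand was used in counting is not given in the sources used here.

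*Fap*, the serine protease fibroblast activation protein, went the other way. It had few reads, 15 and 4 in the WT and 30 and 6 in the null colons at day 0, and 11 and 16 in the WT and 22 and 28 in the null colons at day 15. These were 1.47 and 1.59 CPM in WT day 0, 2.46 and 2.15 CPM in null day 0, 0.956 and 1.69 CPM in WT day 15 and 3.41 and 3.74 CPM in null day 15. All 4 WT mice lay below all 4 null mice, a split that 3.06% of all tested genes showed. The log2 fold change of *Fap* (ENSMUSG00000000392, chromosome 2, 62500943 to 62574075) was -1.44 at day 15 (SE 0.59, interval -2.75 to -0.12, adjusted p = 0.181) and -0.62 at day 0 (SE 0.64, interval -2.05 to 0.80, adjusted p = 0.885) in edgeR. With every library thinned to the depth of the smallest, the value was -1.23 at day 15 and -0.025 at day 0.

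*Pi16*, a peptidase inhibitor of adventitial fibroblasts, was at 9.31 and 0.794 CPM in the WT and 4.10 and 6.46 CPM in the null colons at day 0, the second value resting on 2 reads. At day 15 *Pi16* (ENSMUSG00000024011, chromosome 17, 29317680 to 29330593) was at 20.9 and 9.82 CPM in the WT and 2.64 and 10.0 CPM in the null colons. The genotypes overlapped at both days, and replicate 1 of WT day 15 was the highest of all mice. For *Pi16* the log2 fold change was 1.27 at day 15 (SE 0.82, interval -0.56 to 3.10, adjusted p = 0.379) and 0.16 at day 0 (interval -1.77 to 2.10, adjusted p = 0.977) in edgeR. The day 0 value was -2.66 without replicate 1 of WT day 0.

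*S100a4*, also known as fibroblast-specific protein, was at 30.9 and 4.36 CPM in the WT and 7.22 and 8.62 CPM in the null colons at day 0, so that the WT mice held both the highest and the lowest level. At day 15 *S100a4* (ENSMUSG00000001020, chromosome 3, 90603771 to 90606045) was at 10.95 and 15.3 CPM in the WT and 8.99 and 10.8 CPM in the null colons, a narrow separation. Its log2 fold change was 0.40 at day 15 (SE 0.65, interval -1.04 to 1.84, adjusted p = 0.749) and 1.24 at day 0 (SE 0.67, adjusted p = 0.795) in edgeR. Without replicate 1 of WT day 0, the day 0 value was -0.84.

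Over the set, treated WT mice held more RNA than treated null mice for most of the 8 genes, but the differences were not past the test. A call required an edgeR adjusted p below 0.05 together with a log2 fold change beyond 1 either way. By this rule 0 of the 8 genes passed between the genotypes at day 15, where 3.17% of the 14371 tested genes did, 1.25% higher and 1.91% lower in WT mice. DESeq2 also called 0. *Pdgfrb*, *Pdpn* and *Fap*, 3 of 8, had an unadjusted p under 0.05 in edgeR, as did 23.2% of all genes. *Pdgfra*, *Pdgfrb*, *Thy1*, *Pdpn*, *S100a4* and *Cd34* were higher in both WT mice than in both null mice, 6 of 8 where 28.6% of all genes did this. *Fap* was lower in both, 1 of 8 where 26.2% of all genes were. The log2 fold change was positive for 7 of 8, beside 52.1% of all genes, and its median was 1.11, beside 0.04 for all genes. Because whole tissue was sequenced, fewer fibroblasts and less RNA per fibroblast cannot be told apart.

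Before treatment, 0 of the 8 genes and 0% of all genes passed between the genotypes in edgeR, and DESeq2 called 0 of the 8. *Thy1* and *Pdgfrb*, 2 of 8, had an unadjusted p under 0.05, as did 6.29% of all genes. *Pdgfrb* and *Pdpn* were higher in both WT mice, 2 of 8 beside 18.4% of all genes, and *Fap* was lower in both, 1 of 8 beside 18.7%. The log2 fold change was positive for 5 of 8, beside 50.8% of all genes, and its median was 0.63, beside 0.01. The mean log2 CPM of the 8 genes, centered on the mean of the mice, was 0.78 in replicate 1 of WT day 0. In replicate 2 it was -0.84, below the -0.48 and -0.12 of null day 0.

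**Figure D2:**
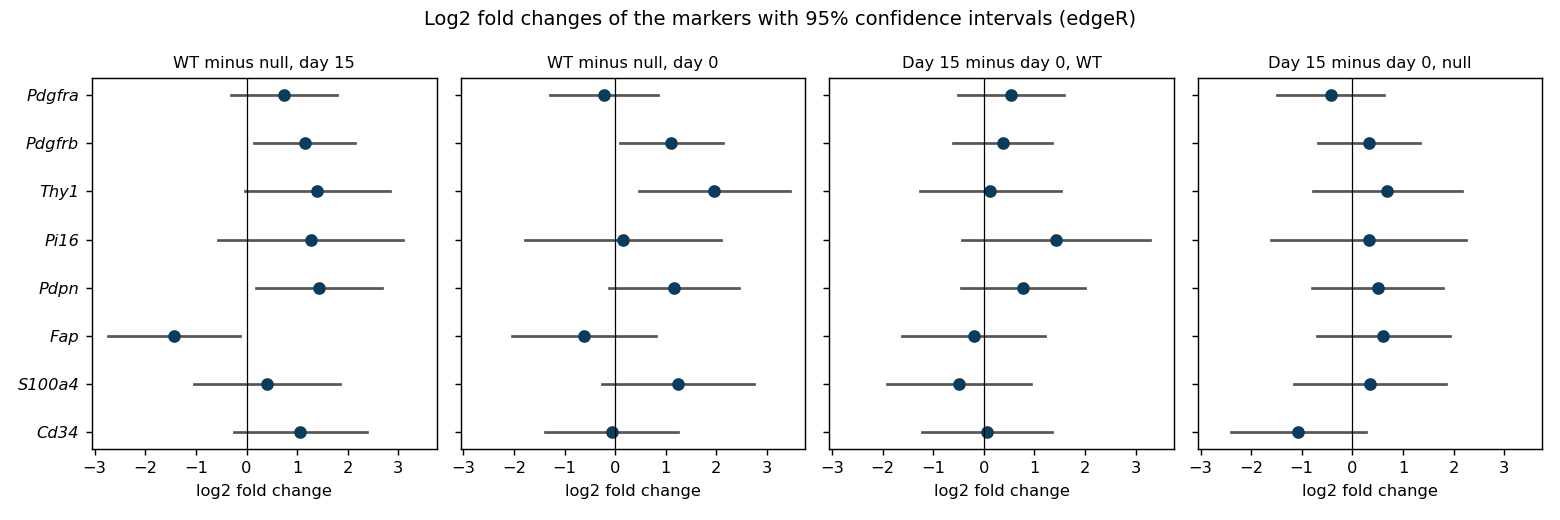
Log2 fold changes of the 8 genes (horizontal axis, points) with 95% confidence intervals (lines) from edgeR's quasi-likelihood test, in panels for WT minus null at day 15 and at day 0 and for day 15 minus day 0 in each genotype. Intervals that leave out 0 are those of *Pdgfrb*, *Pdpn* and *Fap* at day 15 and of *Pdgfrb* and *Thy1* at day 0, all before adjustment for the number of genes tested.

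With AOM-DSS treatment, between the untreated and the day 15 mice, the 8 genes differed little in comparison with their spread. In WT mice 0 of 8 passed in edgeR, beside 7.74% of all genes (3.47% higher and 4.27% lower), DESeq2 called 0, and 0 had an unadjusted p under 0.05, beside 27.6%. *Pi16* had a log2 fold change of 1.43 (SE 0.83, interval -0.43 to 3.28), *Pdpn* of 0.77 (SE 0.55) and *Pdgfra* of 0.54 (SE 0.47). These 3 of 8 were higher in both treated than in both untreated WT mice, as were 31% of all genes, and 0 of 8 were lower in both, beside 31.5%. *Pdgfrb* (0.37), *Thy1* (0.13), *Cd34* (0.064), *Fap* (-0.20) and *S100a4* (-0.50) overlapped between the days, and 6 of 8 values were positive, beside 50.2% of all genes. The *Thy1* value was 2.12 (adjusted p = 0.0479 in edgeR) without replicate 1 of WT day 0 and -0.61 without replicate 2. That of *S100a4* was 1.58 without replicate 1. The *Pi16* value was 4.25 without replicate 1 and 0.74 without replicate 2 of WT day 0, and 0.78 without replicate 1 of WT day 15.

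In null mice 0 of 8 passed with treatment in edgeR, beside 11.8% of all genes (5.3% higher and 6.48% lower), DESeq2 called 0, and 0 had an unadjusted p under 0.05, beside 32.6%. *Thy1* (log2 fold change 0.69, SE 0.66), *Fap* (0.61, SE 0.59) and *S100a4* (0.34, SE 0.67) were higher in both treated mice, 3 of 8 where 31% of all genes were, and 0 of 8 were lower in both, beside 30.3%. *Pdpn* (0.50), *Pdgfrb* (0.33), *Pi16* (0.32) and *Pdgfra* (-0.43) overlapped, and 6 of 8 values were positive, beside 52.1% of all genes. *Cd34* had a value of -1.07 (SE 0.60, interval -2.40 to 0.26, adjusted p = 0.245 in edgeR), with overlap. It was -0.35 without replicate 1 and -2.54 without replicate 2 of null day 15, and -0.56 without replicate 2 of null day 0.

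Whether the treatment acted differently by genotype was tested with an interaction term, positive where WT mice gained more. The estimates were 1.13 for *Cd34* (interval -0.72 to 2.98), 1.10 for *Pi16* (interval -1.56 to 3.77) and 0.97 for *Pdgfra* (interval -0.53 to 2.46). They were 0.27 for *Pdpn*, 0.040 for *Pdgfrb*, -0.56 for *Thy1*, -0.81 for *Fap* and -0.84 for *S100a4*. The interaction passed for 0 of the 8 in edgeR (smallest adjusted p = 0.711) and in DESeq2, beside 0.00696% of all genes. An unadjusted p under 0.05 was reached by 0 of the 8, beside 8.61%, and 5 of 8 estimates were positive, beside 49.8%. With intervals this wide, the test does not show that the response was alike in the genotypes.

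A comparison averaged over both days was added after the levels of *Fap* had been seen. The genotype difference was 1.68 for *Thy1* (SE 0.46, adjusted p = 0.0885), 1.13 for *Pdgfrb* (SE 0.32, adjusted p = 0.0931), 1.30 for *Pdpn* (SE 0.40, adjusted p = 0.114) and -1.03 for *Fap* (SE 0.43, adjusted p = 0.201) in edgeR. It was 0.82 for *S100a4*, 0.72 for *Pi16*, 0.50 for *Cd34* and 0.26 for *Pdgfra*, so that 7 of 8 were positive, beside 51.5% of all genes. edgeR called 0 of the 8, beside 1% of all genes (0.362% higher and 0.64% lower), and 4 of 8 had an unadjusted p under 0.05, beside 22.3%. In 0 of 8 were all 4 WT mice above all 4 null mice, beside 2.6% of all genes. DESeq2 called 3 of the 8, *Thy1* (adjusted p = 0.00221), *Pdpn* (adjusted p = 0.0195) and *Pdgfrb* (adjusted p = 0.0138). Among all genes DESeq2 also called more in this comparison, 639 where edgeR called 144. For these 3 markers the call thus depended on the tool. It also depended on single mice. Without replicate 1 of WT day 0, the values were 0.69 for *Thy1*, 0.65 for *Pdgfrb* and 0.87 for *Pdpn* (adjusted p = 0.388, 0.389 and 0.451 in edgeR). Without replicate 2 of WT day 0, edgeR called *Thy1* (2.04, adjusted p = 0.0129) and *Pdgfrb* (1.37, adjusted p = 0.0358). Without replicate 2 of null day 15, it called *Pdpn* (1.90, adjusted p = 0.0283).

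**Figure D3:**
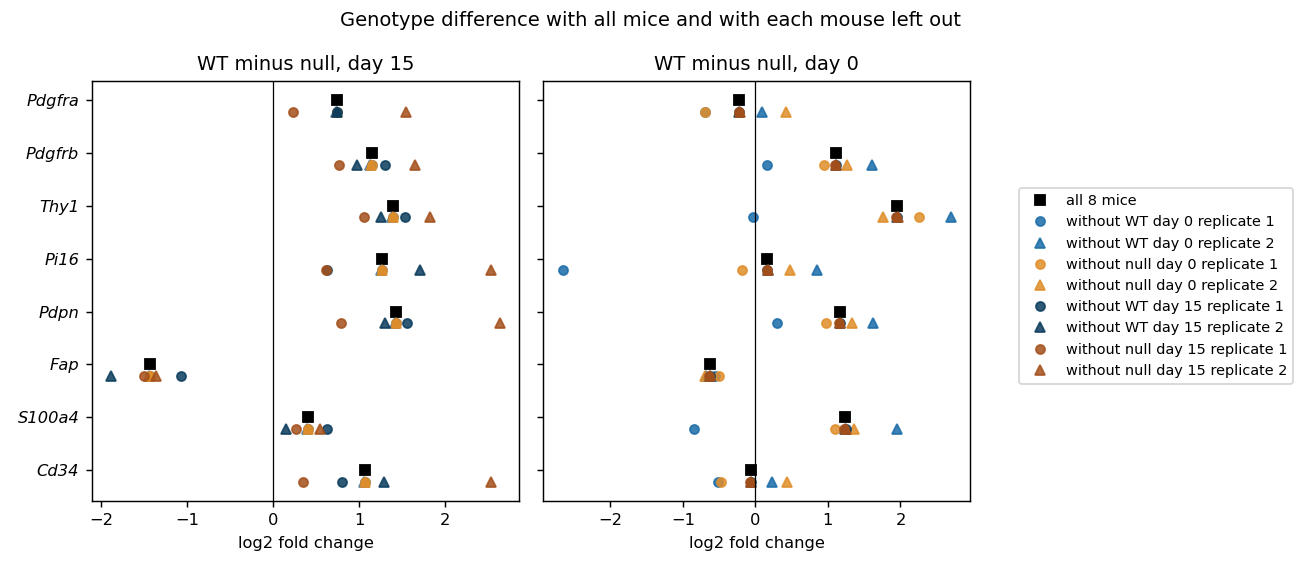
Genotype difference in log2 fold change (horizontal axis, scaled separately in each panel) of each gene with all 8 mice (black square) and with each mouse left out in turn (colored symbols), at day 15 on the left and at day 0 on the right. At day 15 no symbol crosses 0 and *Fap* alone lies on the negative side, between -1.88 and -1.08, while at day 0 leaving out replicate 1 of WT day 0 moves *Thy1* to -0.029, *S100a4* to -0.84 and *Pi16* to -2.66.

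The markers were next set against matrix transcripts of the same mouse, and differences among the markers were not tested. Each level was divided by the summed CPM of 15 fibroblast matrix genes and is given per 1000 CPM of them. *Pdgfra* was at 9.21 and 12.8 in WT day 0, 16.8 and 28.8 in null day 0, 12.1 and 13.6 in WT day 15, and 17.6 and 15.5 in null day 15. All 4 WT mice thus lay below all 4 null mice. *Fap* per 1000 CPM of matrix genes was at 0.250 and 0.654 in WT day 0, 1.28 and 0.886 in null day 0, 0.184 and 0.367 in WT day 15, and 2.79 and 1.09 in null day 15, again without overlap. For 9.06% of all genes the 4 WT mice were below the 4 null mice in this ratio, and for 0.0487%, and 0 of the 8, they were above. At single days both WT mice were lower for 64.5% of all genes at day 15 and for 41.2% at day 0. Among the 8 these were *Pdgfra* and *Fap* at day 15, and *Pdgfra*, *Fap*, *Pi16* and *Cd34* at day 0.

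*Pdpn* was the only one of the 8 whose ratio to the matrix genes was higher in both WT mice at each day. It was at 6.18 and 5.89 in WT day 0, 5.39 and 5.46 in null day 0, 7.80 and 10.55 in WT day 15, and 5.83 and 7.49 in null day 15. The margins were small, and 2.53% of all genes were higher in both WT mice at day 15 and 1.18% at day 0. *Pdgfrb* stayed between 11.1 and 17.5 in all 8 mice, with overlap of the genotypes at both days. *Cd34* was at 7.65 and 10.96 in WT day 0 and 13.96 and 20.7 in null day 0, without overlap, and at 8.54 and 6.83 in WT day 15 and 5.32 and 8.62 in null day 15, with overlap. *Pi16* was also lower in WT mice at day 0, and *Thy1* and *S100a4* overlapped at both days. These placements were the same with the mean log2 level of the matrix genes as the divisor, which was added after the data were seen.

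**Figure D4:**
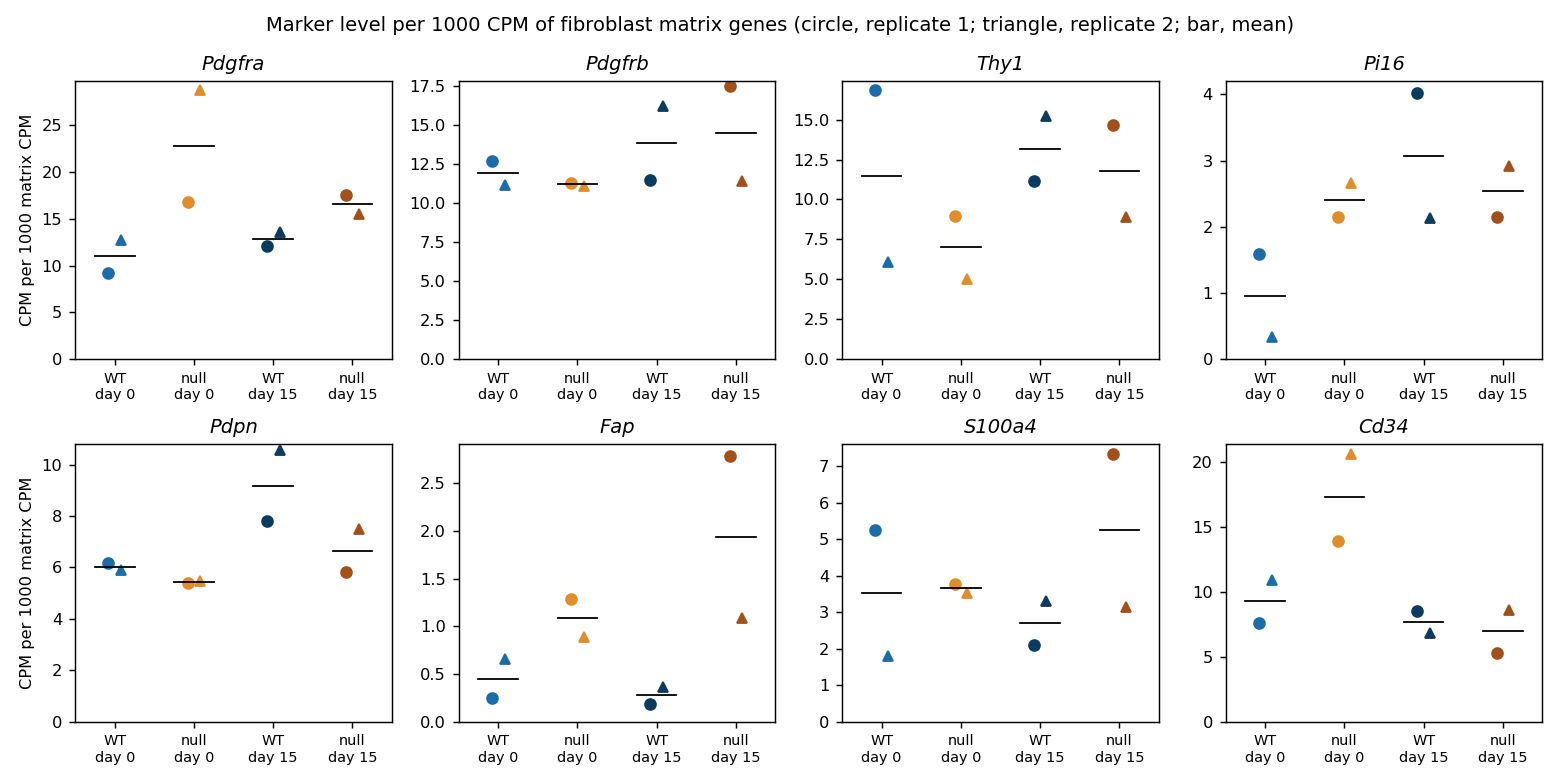
Level of each gene per 1000 CPM of 15 fibroblast matrix genes (vertical axis, from 0) in each mouse, with circles for replicate 1, triangles for replicate 2 and a bar for the group mean. *Pdgfra* and *Fap* lie lower in every WT mouse than in every null mouse, and *Pdgfrb* stays between 11.1 and 17.5.

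The ligands and signal transducers of the PDGF receptors, and then other genes of fibroblasts and their neighbors, were examined next. No listed gene passed for the interaction, so a call in 1 genotype alone shows no difference in the response. The calls among these listed genes rest on few mice. Of the 16 with the largest changes, up to 3 per list and direction, between the genotypes at day 15, DESeq2 also called 15. None was called without replicate 1 or without replicate 2 of null day 0, without replicate 1 of null day 15, or with only the groups compared, 1 was called without replicate 2 of WT day 15, and 0 reversed in sign. Without replicate 2 of null day 0, 0 of 23 calls chosen in the same way in null mice with treatment remained. Of the 4 ligand genes, *Pdgfa*, *Pdgfb*, *Pdgfc* and *Pdgfd*, 0 passed the threshold in any comparison in edgeR. Their median log2 fold change was 0.27 between the genotypes at day 15 and -1.07 between the days in WT mice. *Pdgfa*, made by epithelium and binding PDGFRα, was at 32.0 and 54.8 CPM in WT day 0 and 19.7 and 23.2 CPM in WT day 15 mice, without overlap (log2 fold change -0.997, SE 0.38, adjusted p = 0.124 in edgeR). *Pdgfb*, the main ligand of PDGFRβ, was at 5.98 and 7.94 CPM in WT day 0 and 10.0 and 10.3 CPM in WT day 15 mice (log2 fold change 0.57, SE 0.40, adjusted p = 0.376 in edgeR). Of 12 adaptors and effectors that bind the activated receptors or act just below them, 0 passed between the genotypes at either day, and the median log2 fold change was 0.06 at day 15. *Pik3r1*, the regulatory subunit of phosphoinositide 3-kinase, fell between the days in WT mice (log2 fold change -1.03, adjusted p = 0.0272 in edgeR). *Rasa1*, a Ras GTPase-activating protein, fell in null mice (-1.79, adjusted p = 0.0162 in edgeR). Each was also lower in the other genotype. *Pik3r1* was at 209 and 209 CPM in null day 0 and 121 and 118 CPM in null day 15 mice. *Rasa1* was at 26.1 and 26.2 CPM in WT day 0 and 13.5 and 13.2 CPM in WT day 15 mice. Of 7 feedback inhibitors of Ras-MAPK signaling, the Sprouty, Spred and dual-specificity phosphatase genes, 0 passed in any comparison. Their median was 0.48 between the genotypes at day 15 and -0.77 between the days in WT mice.

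Among 17 tested close relatives of the 8 genes, *Crispld2*, a secreted CAP-domain protein of the same superfamily as PI16, passed at day 15. This was 1 of 17, where 1.25% of all genes were called higher in WT mice. Its levels were 167 and 78.8 CPM in the WT and 23.7 and 36.8 CPM in the null colons (log2 fold change 2.02, SE 0.40, adjusted p = 0.0315 in edgeR). It also rose with treatment in WT mice (1.86, adjusted p = 0.0249 in edgeR). *Dpp4*, the peptidase nearest to FAP, fell in null mice with treatment (log2 fold change -1.14, adjusted p = 0.0307 in edgeR). Its WT levels were also lower, at 49.0 and 53.6 CPM untreated and 31.0 and 34.7 CPM treated. *Kit*, a receptor related to the PDGF receptors, fell in WT mice (-1.25, adjusted p = 0.0220 in edgeR). The S100 genes *S100a11* in WT mice (2.14, adjusted p = 0.0265) and *S100a16* in null mice (1.39, adjusted p = 0.0206 in edgeR) rose with treatment. *S100a16* was also higher in treated WT mice, at 404 and 516 CPM untreated and 930 and 875 CPM treated. *S100a11* in null mice was at 55.0 and 57.5 CPM untreated and 72.1 and 250 CPM treated. In WT mice 2 of 17 were called higher and 1 lower, beside 3.47% and 4.27% of all genes. In null mice 1 was called higher and 1 lower, beside 5.3% and 6.48%. Over the 17 relatives the median log2 fold change between the genotypes at day 15 was 0.41.

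Genes of crypt-base and adventitial fibroblasts, the compartment that *Cd34* and *Pi16* mark, included 3 of 12 that passed at day 15, all of them higher in the WT colons, where 1.25% of all genes were called higher. The list had a median log2 fold change of 1.27, beside 0.04 for all genes. *Il33*, an alarmin cytokine, was at 9.74 and 59.2 CPM in the WT and 3.57 and 3.74 CPM in the null colons (log2 fold change 3.23, adjusted p = 0.0443 in edgeR), with its WT mice far apart. *Cd55*, a complement regulator, was at 30.5 and 57.1 CPM in the WT and 12.7 and 14.4 CPM in the null colons (1.69, adjusted p = 0.0319 in edgeR). *Sfrp1*, a secreted Wnt inhibitor, was at 222 and 208 CPM in the WT and 97.2 and 92.6 CPM in the null colons (1.18, adjusted p = 0.0273 in edgeR). At day 0 the same list had a median of -0.44 with 0 passed, and 0 passed for the interaction, with a median of 1.51. *Ly6a*, which encodes SCA-1, rose with treatment in WT mice (log2 fold change 3.23, adjusted p = 0.00597 in edgeR) and in null mice (1.9997, adjusted p = 0.0192). It was at 1426 and 2735 CPM in WT day 15 mice, where *Pdgfra* was at 62.9 and 62.8 CPM. Which cells of the whole colon made the RNA of the genes in this list was not tested. *Il33* (3.19) and *Sfrp1* (1.115) rose in WT mice, *Cd55* (-1.36) and *Dpp4* (-1.14) fell in null mice, and *Sema3c*, a secreted semaphorin, fell in WT (-1.05) and in null mice (-1.16).

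Of 15 tested genes of activated and inflammatory fibroblasts, 2 passed at day 15 and were higher in the WT colons, beside the same 1.25%. They were the chemokine gene *Cxcl12* (log2 fold change 2.21, adjusted p = 0.0362) and the interleukin-1 receptor gene *Il1r1* (1.93, adjusted p = 0.0274 in edgeR). The list had a median of 1.25 at day 15 and of 1.24 at day 0, where 0 passed. Its mean log2 CPM, centered on the mean of the mice, was 1.09 in replicate 1 but -0.65 in replicate 2 of WT day 0, the latter between the -0.66 and -0.35 of null day 0. *Tagln*, which is also a smooth muscle gene, fell with treatment in WT mice (-1.89, adjusted p = 0.0207 in edgeR). Its null levels were also lower, at 1503 and 1621 CPM untreated and 953 and 656 CPM treated. Of 10 crypt-top genes, those of the compartment with high PDGFRα, 0 passed between the genotypes at either day. *F3*, the tissue factor gene, fell with treatment in WT (-2.09, adjusted p = 0.0103) and in null mice (-1.73, adjusted p = 0.0169 in edgeR). *Bmp2*, a morphogen of the crypt top, fell in WT mice (-2.39, adjusted p = 0.0245 in edgeR). The epithelial markers *Slc26a3* (-3.63) and *Aqp8* (-3.39) also fell in WT mice, 2 of 12 beside 4.27% of all genes. Of the same 12 markers 6 had a positive value. Which cells the RNA of *F3* and *Bmp2* came from was not tested. Of 15 tested fibroblast transcription factors 0 passed between the genotypes at day 15, with a median of 0.44, and *Zeb2* fell in null mice with treatment (-1.92, adjusted p = 0.0249 in edgeR). The 15 matrix genes had a median log2 fold change of 0.97 at day 15. There 15 of 15 were above 0, beside 52.1% of all genes, and 0 passed, beside 3.17%. At day 0 the median was 0.80, with 13 of 15 above 0, beside 50.8%, and 0 passed. Higher in both WT mice were 11 of 15 at day 15, beside 28.6%, and 11 of 15 at day 0, beside 18.4%. Their sums at day 0 overlapped, at 5880 and 2426 CPM in the WT and 1917 and 2433 CPM in the null colons. *Postn* (-2.71, adjusted p = 0.0198) and *Dcn* (-2.18, adjusted p = 0.0445 in edgeR) fell in null mice with treatment. There 10 of the 15 matrix genes had a positive value, with a median of 0.42. In WT mice *Postn* was also lower, at 231 and 220 CPM untreated and 71.6 and 62.1 CPM treated. *Dcn* overlapped in WT mice, at 250 and 179 CPM untreated and 209 and 436 CPM treated.

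Cells other than fibroblasts also express several of the 8 genes, and their markers are given beside them. Endothelial markers, relevant to *Cd34*, summed to 474 and 392 CPM in the WT and 123 and 225 CPM in the null colons at day 15, and to between 156 and 235 CPM in the untreated mice. Of 12 endothelial genes 10 were higher in both WT mice at day 15, where 28.6% of all genes were, and 0 were at 0 reads in any mouse. *Cdh5* (log2 fold change 2.36, adjusted p = 0.0316) and *Eng* (1.71, adjusted p = 0.0341 in edgeR) passed. Lymphatic endothelial markers, relevant to *Pdpn*, summed to 103 and 69.3 CPM in the WT and 20.9 and 36.5 CPM in the null colons at day 15, with 5 of 5 higher in both WT mice, beside the same 28.6%, and 0 at 0 reads. In null mice 3 of the 5 fell with treatment, beside 6.48% of all genes, *Lyve1* (-2.77, adjusted p = 0.0220), *Mmrn1* (-2.88, adjusted p = 0.0308) and *Reln* (-1.60, adjusted p = 0.0429 in edgeR). The median of the lymphatic list was -2.64 there and -0.23 between the genotypes at day 0, where *Pdpn* had 0.50 and 1.16. Pericyte markers, relevant to *Pdgfrb*, summed to 155 and 206 CPM in the WT and 71.8 and 99.2 CPM in the null colons at day 15. Of 7 such genes 6 were higher in both WT mice, beside 28.6%, *Kcnj8* passed (2.50, adjusted p = 0.0340 in edgeR), and 1, *Higd1b*, was at 0 reads in at least 1 mouse. The median of the pericyte list was -0.02 between the genotypes at day 0 and -0.70 with treatment in null mice, where *Pdgfrb* had 1.11 and 0.33.

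T cell markers, relevant to *Thy1* and *S100a4*, summed to 139 and 245 CPM in the WT and 68.5 and 106 CPM in the null colons at day 15. In the untreated mice they summed to 68.1 and 24.6 CPM in the WT and 31.4 and 16.5 CPM in the null colons. *S100a4* in the treated WT mice (10.95 and 15.3 CPM) lay between replicate 1 (30.9 CPM) and replicate 2 (4.36 CPM) of WT day 0. Of 10 T cell genes 8 were higher in both WT mice at day 15, beside 28.6% of all genes, and 0 passed, and 1, *Cd5*, was at 0 reads in at least 1 mouse. Macrophage markers summed to 1596 and 2424 CPM in the WT and 432 and 974 CPM in the null colons at day 15, with 10 of 11 higher in both WT mice, beside 28.6% of all genes. *C1qa* (2.16, adjusted p = 0.0137) and *C1qb* (1.83, adjusted p = 0.0482 in edgeR) passed. Epithelial markers went the other way, with 12 of 12 lower in both WT mice, beside 26.2% of all genes, and a sum of 18157 and 22034 CPM in the WT and 36793 and 29544 CPM in the null colons at day 15. Smooth muscle markers summed to 3724 and 2153 CPM in the WT and 5344 and 6123 CPM in the null colons at day 15. Untreated, they summed to 7260 and 9932 CPM in the WT and 7131 and 6992 CPM in the null colons. At day 15, 7 of 10 were lower in both WT mice, beside 26.2% of all genes, and 1 was higher. With treatment edgeR called 6 of 10 lower in WT mice, beside 4.27%, and 1 of 10 in null mice, beside 6.48%. The part of these cell types in the values of the 8 genes was not tested.

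**Figure D5:**
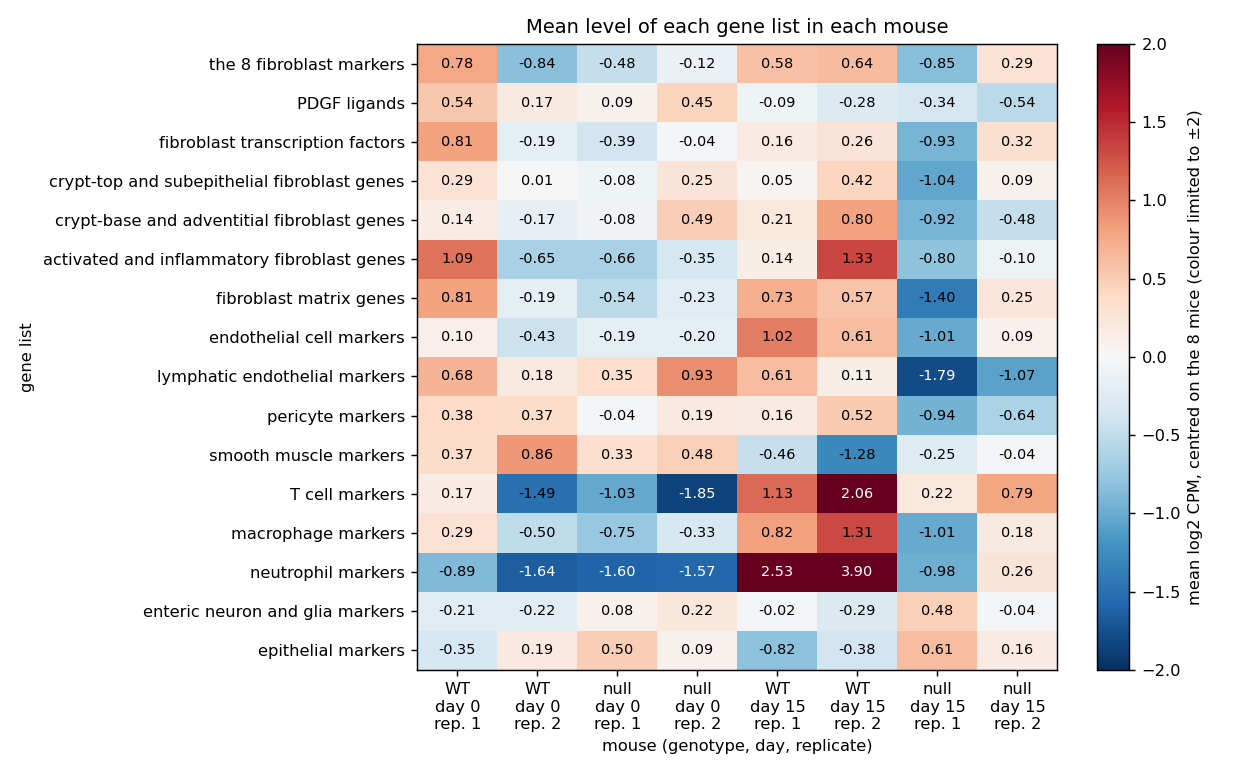
Mean log2 CPM of each gene list (rows) in each of the 8 mice (columns), centered on the mean of the mice, with red above and blue below that mean. The 8 fibroblast markers were highest in WT day 0 replicate 1 (0.78) and in both WT day 15 mice (0.58 and 0.64) and lowest in null day 15 replicate 1 (-0.85) and WT day 0 replicate 2 (-0.84), the former also low in the matrix (-1.4023), endothelial (-1.01) and macrophage (-1.01) lists.

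In their profiles over the 8 mice, some of the 8 genes were close to each other and others were not. The root mean square distance of log2 CPM, centered on the mean of the mice, was smallest between *Pdgfrb* and *Pdpn* (0.31), followed by *Pdgfrb* and *Thy1* (0.45) and by *Pdgfra* and *Cd34* (0.47). It was largest between *Pi16* and *Fap* (1.50), and the gene nearest to *Fap* among the 8 was *Pdgfra* at 0.94. Between the mice of a group, *Thy1* and *S100a4* differed by 2.73 and 2.75 on the log2 scale in WT day 0 and by 0.27 and 0.47 in WT day 15. Neighbors were then sought among the 11511 tested genes with a mean of at least 5 CPM. Nearest to *Pdgfra* were *Sass6*, *Smc2* and *Atad5* (distances 0.15 to 0.21), and nearest to *Pdgfrb* were *Gpx7*, *Myo5a* and *Tulp3* (0.13 to 0.17). *Thy1* was nearest to *Prrx2*, *Fkbp10* and *Hmox1* (0.25 to 0.29), and *Pdpn* to the collagen gene *Col5a2*, *Ercc6l* and *Tulp3* (0.21 to 0.23). *Pi16* had the most distant neighbors, *Apod*, *Gchfr* and *Hmgn3* (0.41 to 0.53), and those of *Fap* were *Bfar*, *Metrnl* and *Nadsyn1* (0.14 to 0.16). *S100a4* was nearest to *Ier5l*, *Armcx2* and *Ajuba* (0.29 to 0.34) and *Cd34* to *Epdr1*, *Ednrb* and *Eogt* (0.19 to 0.24). With 8 points that share library and depth, such nearness is a description.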

How the data were processed

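Polyadenylated RNA of 8 distal colons was sequenced by the authors, who aligned reads to mm10 with STAR per the labels. The program and annotation behind the gene counts, and whether strand was used, are not given in the sources used here. Raw counts per gene symbol were deposited, of which all genes have at least 6 counts in at least 1 mouse. A second deposited table holds a score, the count divided by a size factor of DESeq2, and was used only for that factor (largest relative deviation from the counts 8.82e-10). Groups follow the labels, and replicates are separate mice.

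The deposited counts went into edgeR 4.0.16 (TMM, quasi-likelihood test, prior degrees of freedom 5.97; R 4.3.3) as 1 model of 4 groups over 8 mice. Tested were 14371 genes, those whose size-factor-scaled counts averaged above 5. Calls needed a Benjamini-Hochberg p below 0.05 over all tested genes and a log2 fold change beyond 1 either way. SE is the absolute log2 fold change over the root of the F statistic. Centered log2 CPM used a prior count of 2. Fits were tested on simulated data. Named genes are the 8 markers, *Hsf1*, up to 3 called genes per list, comparison and direction with the largest change, and the 3 nearest profiles per marker. Genes named otherwise, including the PDGF ligands, were named after their values were seen. The 8 genes, the 20 other gene lists and the tests were chosen with earlier results of these data known.

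Alternatives were DESeq2 1.42.0, its size factors, no filter, filterByExpr, no fold threshold, the replicate number as a block, thinning to the smallest library (seed 1), only the groups compared, and each mouse left out. Positions and exon lengths come from GENCODE M21 (GRCm38), and upstream sequences from RefSeq (GRCm38.p6).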

Additional observations from a re-analysis of the deposited data

How the results depend on the processing

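With 2 mice per group, outlying samples could not be tested for, and in replicate 2 of WT day 0, the smallest library, *Pi16* had 2, *Fap* 4 and *S100a4* 11 reads. For WT against null mice at day 15, the 8 genes kept their sign in all 128 values over 16 alternatives. The count of the 8 genes called there ranged from 0 to 2 with each mouse left out, and was 0 otherwise. At day 0 and between the days in WT mice it ranged from 0 to 1, and it was 0 between the days in null mice and for the interaction. For the genotype average, added after the data were seen, DESeq2 called 3, and 0 to 2 were called with each mouse left out.

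Signs turned when a mouse was left out, in these ranges of the log2 fold change. At day 0 *Pdgfra* ranged from -0.70 to 0.42, *Thy1* from -0.029 to 2.70, *Pi16* from -2.66 to 0.85, *S100a4* from -0.84 to 1.96 and *Cd34* from -0.51 to 0.44. Between the days in WT mice *Pdgfrb* ranged from -0.14 to 1.31, *Thy1* from -0.61 to 2.12, *Fap* from -0.65 to 0.16, *S100a4* from -1.22 to 1.58 and *Cd34* from -0.23 to 0.51. In null mice *Pdgfra* ranged from -1.22 to 0.22, *Pdgfrb* from -0.17 to 0.71, *Pi16* from -0.94 to 0.98, *Pdpn* from -0.70 to 1.15 and *Hsf1* from -0.52 to 0.050. The interaction ranged from -0.48 to 0.98 for *Pdgfrb*, -1.31 to 1.43 for *Thy1*, -0.37 to 1.47 for *Pdpn* and -1.57 to 1.25 for *S100a4*, and the genotype average from -0.69 to 1.35 for *Pi16* and -0.22 to 1.17 for *S100a4*. Without a turn of sign, the day 15 value ranged from 0.61 to 2.54 for *Pi16* and 0.14 to 0.63 for *S100a4*, the change in WT mice from 0.23 to 1.02 for *Pdgfra* and 0.31 to 1.64 for *Pdpn*, that in null mice from 0.26 to 1.02 for *Thy1* and 0.20 to 0.47 for *S100a4*, the interaction from 0.42 to 2.60 for *Cd34*, 0.41 to 3.93 for *Pi16*, 0.32 to 1.76 for *Pdgfra* and -1.26 to -0.45 for *Fap*, and the genotype average from 0.14 to 1.24 for *Cd34* and 0.0027 to 0.66 for *Pdgfra*. With libraries thinned, *Pi16* turned to -0.017 at day 0 and the interaction of *Pdpn* to -0.093, while the change of *S100a4* was 0.076 in null and -0.86 in WT mice and that of *Fap* -0.66 in WT mice. The cause was not tested. *Hsf1* at day 15 had adjusted p between 1.998e-06 and 0.0686 over the alternatives in edgeR and DESeq2, above 0.05 in 4 of them.

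At day 15 the number of all genes called was 455, 1175 with DESeq2 and 6 with only the groups compared. It was 12 without replicate 1 and 12 without replicate 2 of null day 0, 30 and 873 without replicates 1 and 2 of null day 15, and 19 without replicate 2 of WT day 15. At day 0 it was 0, and 17 with DESeq2 and 17 without replicate 2 of WT day 0. In WT mice it was 1112, 1738 with DESeq2 and 92 to 1336 with each mouse left out, lowest without replicate 2 of WT day 15. In null mice it was 1692, and 0 to 1891 with each mouse left out, lowest without replicate 2 of null day 0. For the interaction it was 1, 116 with DESeq2 and 0 to 50 with each mouse left out, and for the genotype average 144, 639 with DESeq2 and 0 to 435. The alternatives for the listed genes with the largest changes, up to 3 per list, comparison and direction, were added after the data were seen. With each mouse left out, 0 to 14 of 16 calls remained at day 15, 5 to 27 of 27 in WT mice and 0 to 23 of 23 in null mice, with 0 reversed. The smaller number of samples is part of these settings, and no other cause was tested.

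Replicate numbers do not pair the mice, which are different animals. Deviations of same-numbered mice correlated across genes between -0.29 (WT day 0 and WT day 15) and 0.15 (null day 0 and null day 15). With the replicate number as a block, 0 of the 8 genes were called in every comparison, *Pdpn* had 1.50 and *Fap* -1.45 at day 15, *Cd34* turned to 0.040 at day 0, and the genotype average had 25 called genes in place of 144.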

Other observations

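Neutrophil markers had a median log2 fold change of 4.26 between the genotypes at day 15. Of 9 tested genes 7 were higher in both WT than in both null colons, beside 28.6% of all genes, and 5 passed in edgeR, beside 1.25% called higher. *S100a8* and *S100a9*, neighbors of *S100a4* in the S100 family that encode calprotectin, had log2 fold changes of 6.20 (adjusted p = 0.0161) and 4.90 (adjusted p = 0.0210 in edgeR), beside 0.40 for *S100a4*. *S100a8* had 0 and 9 reads in null day 15 mice. Over 15 alternatives the values ranged from 5.16 to 11.5 for *S100a8* and from 3.21 to 5.82 for *S100a9*, and each call remained in 10 of them. Of 5 genes of colon position, among them *Hoxa13*, which marks the distal end, 5 had a negative value between the days in each genotype. In edgeR 3 of 5 fell in WT mice and 1 of 5 in null mice, beside 4.27% and 6.48% of all genes. The list summed to 772, 1199, 1001 and 962 CPM in the untreated mice and 575, 247, 676 and 376 CPM in the treated mice. *Hoxa13* fell in WT (-1.60, adjusted p = 0.0434) and in null mice (-1.94, adjusted p = 0.0235 in edgeR). *Hoxd12* was at 2.09 and 1.48 CPM in the WT and 16.4 and 4.68 CPM in the null colons at day 15, lower in WT mice (log2 fold change -2.54, adjusted p = 0.0458 in edgeR), 1 of 5 beside 1.91% of all genes. Over the 15 alternatives this value ranged from -3.19 to -1.38, and the call remained in 5. It fell in WT mice with treatment (-2.99, adjusted p = 0.0182) and had a value of -0.98 in null mice (adjusted p = 0.219), and the interaction did not pass (adjusted p = 0.517 in edgeR). Where along the colon each piece was taken was not tested beside the 8 markers.

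Enteric neuron and glia markers summed to between 78.8 and 117 CPM in the untreated mice. They summed to 152 and 117 CPM in WT day 15 and 266 and 167 CPM in null day 15 mice. *Prph* (log2 fold change 1.57, adjusted p = 0.0398) and *Uchl1* (1.3958, adjusted p = 0.0305 in edgeR) rose with treatment in null mice. In WT mice *Prph* was also higher, at 8.72 and 18.3 CPM untreated and 30.2 and 28.2 CPM treated. So was *Uchl1*, at 34.5 and 36.9 CPM untreated and 79.0 and 48.2 CPM treated. Mesothelial markers could be read in part only, since 4 of 6 were tested and 3 were at 0 reads in at least 1 mouse, with a median log2 fold change between the genotypes of 0.22 at day 15.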
